A study of Mus musculus with 4 samples.

Results

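The mu-class glutathione S-transferases of the mouse are the 7 genes Gstm1 to Gstm7. All 7 were present among the 20642 gene symbols of a table of nascent transcription in mouse liver, and 5 of them (Gstm1, Gstm2, Gstm3, Gstm4 and Gstm7) passed a minimum level of transcription and are called active here. The genes were chosen by symbol, keeping per symbol the row highest on average near the promoter, and each symbol had 1 transcript. The family itself was selected on an earlier result of these data, the rise of Gstm3 in the gene body after loss of Hdac3. The change of Gstm3 is therefore given below as a description, with no test, and supports nothing.

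Transcription was measured by PRO-seq, in which nuclei are allowed to extend their RNA briefly with biotinylated nucleotides, so that the captured RNA marks polymerases that were engaged on the DNA. The 4 libraries came from livers of C57BL/6 mice on postnatal day 14, and each run-on used nuclei pooled from several animals. WT mice (2 libraries) were Hdac3 +/+ and KO mice (2 libraries) carried F/F or F/- alleles of Hdac3, which encodes the deacetylase of the NCoR/SMRT corepressor complex. All mice, controls included, carried Alb-Cre, whose albumin promoter is active in hepatocytes, and other liver cells of KO mice should have kept at least 1 copy of the gene. The labels do not say which KO alleles entered which library, and p-values measure the spread between these pools only.

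Glutathione S-transferases join the tripeptide glutathione to electrophilic compounds, such as epoxides and products of lipid peroxidation, and the conjugates are then exported from the cell. Mu-class enzymes work as dimers in the cytosol, and Gstm1 encodes a major mu-class subunit of mouse liver. Several genes of the family are known to respond to the oxidant sensor NRF2 and to the xenobiotic receptors CAR and PXR.

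Reads on genes numbered between 16628518 and 26190040 per library. The deposited values are reads in 2 regions of each gene, scaled between libraries (normalized reads). The promoter-proximal (pp) value counts a 50 bp window around the transcription start site (TSS), and the gene body (gb) value counts from 1 kb downstream of the TSS to the transcript end. A gene was active if it had pp reads and more than 4 normalized gb reads per kb on average. The study applies this minimum after scaling to 10000000 reads, and on that scale, computed from the reads on genes, 11100 genes passed, among them Gstm1, Gstm2, Gstm3 and Gstm7 but not Gstm4. A gene was called changed at an adjusted p under 0.05 with a log2 fold change beyond 0.6 in either direction, from a limma fit over all 12705 active genes. Hdac3 itself gave 665 and 648 normalized gb reads in WT and 609 and 582 in KO (log2 fold change -0.14, SE 0.13, adjusted p = 0.413). The deleted stretch is not given in the sources used here, so this value does not check the labels. The pp window held 10.3% and 9.38% of the reads of the WT libraries and 13.6% and 17% of those of the KO libraries. The median active gene rose by 0.56 on the log2 scale at pp and fell by 0.09 in the gb. Changes at pp are therefore also given relative to that median, since scaling within the region moves all of them by about this amount.

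Markers of liver cell types also differed between the genotypes. All 10 stellate cell markers were called up in the gb, their summed normalized gb reads ranging from 12299 to 13598 in WT and from 26051 to 28640 in KO. Of the endothelial markers, 7 of 10 were called up (62355 to 67629 in WT, 104031 to 116208 in KO), and none of either list was at 0. Of the hepatocyte markers, 6 of 10 were called down (399270 to 424852 in WT, 221834 to 223431 in KO), and of the periportal markers 8 of 10. Among all active genes, 10.4% were called up and 11.4% down in the gb. In bulk nuclei, fewer cells of a type and less transcription per cell cannot be told apart. The part of these shifts in the values of the mu-class genes was not tested.

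The 7 genes lie in 1 cluster of 149 kb on chromosome 3 (mm10, 107895854 to 108045179), and all but Gstm5 are read from the minus strand. From low to high coordinates the order is Gstm5, Gstm7, Gstm6, Gstm3, Gstm2, Gstm1 and Gstm4. The stretch between neighbouring minus-strand genes ranged from 7029 bp between Gstm6 and Gstm7 to 25801 bp between Gstm1 and Gstm2. Each gene has 8 exons in the annotation, and exons made up 20.7% to 37.9% of the gb, so most of the counted sequence was intronic.

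Gstm1 had the highest gb density of the family in every library. It stood at 77.0 and 51.4 normalized reads per kb in WT and 90.0 and 110 in KO, and 81.9% of active genes had a lower mean density. In WT the next levels were those of Gstm7 (21.7 ± 3.82 per kb, SD, n = 2), Gstm2 (14.5 ± 1.42), Gstm4 (6.53 ± 0.634) and Gstm3 (5.07 ± 1.17). Gstm5 (3.20 ± 0.102) and Gstm6 (1.38 ± 0.133) had the lowest gb densities. In this order the WT libraries of neighbouring genes did not overlap, although Gstm4 and Gstm3 rested on only 19 to 23 reads per library and their counting intervals did overlap. Gstm5 rested on 5 and 6 WT reads and Gstm6 on 5 and 5, so their places in the order are no firmer. In KO the order was Gstm1 (99.8 ± 13.8), Gstm3 (63.5 ± 16.1), Gstm2 (21.9 ± 3.59), Gstm4 (12.5 ± 1.60), Gstm7 (8.61 ± 2.44), Gstm6 (2.14 ± 0.822) and Gstm5 (1.86 ± 1.46). Gstm3 thus stood second in KO and Gstm7 after Gstm4, and only Gstm5 and Gstm6 overlapped with their neighbour in the order. In KO, Gstm4 rested on 37 and 31 reads and Gstm7 on 43 and 20. The densities of Gstm4 and Gstm7 were 11.4 and 10.3 per kb in KO replicate 1, so their order in KO is not firm.

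**Figure D1:**
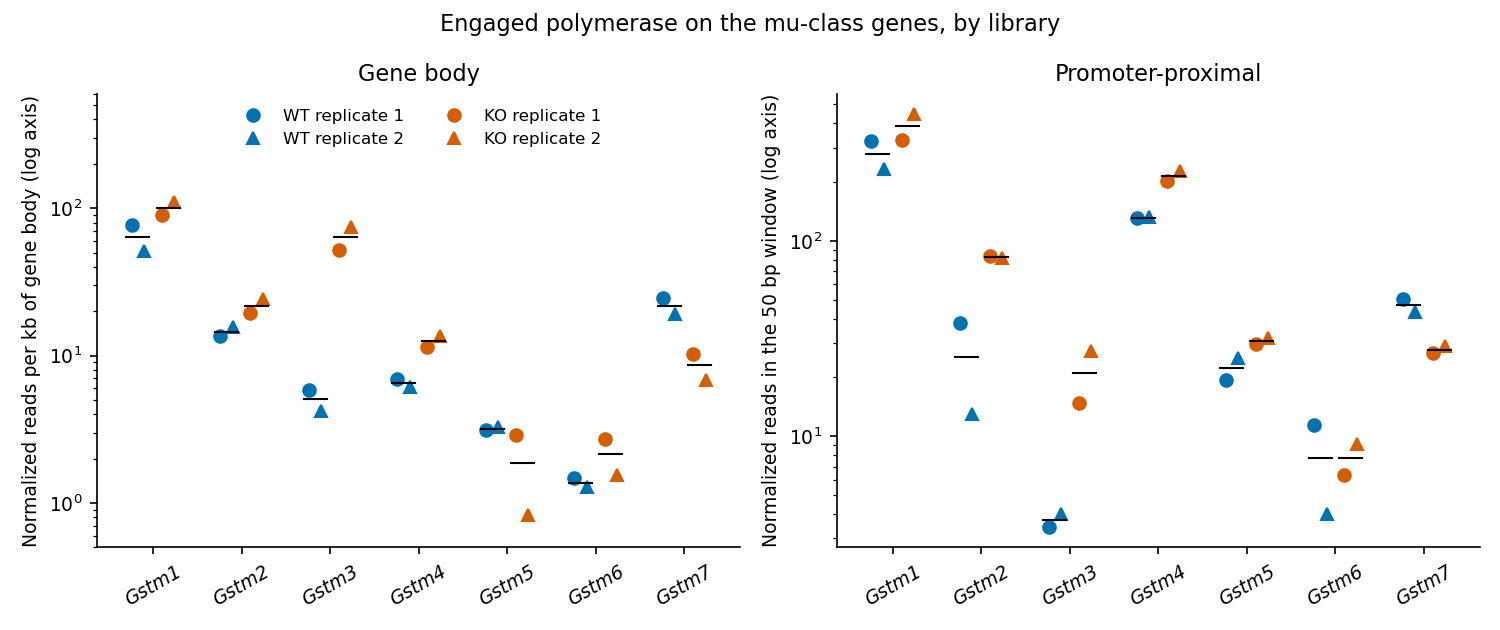
Level of each mu-class gene in the 4 libraries, as normalized reads per kb of gene body (left) and normalized reads in the 50 bp promoter-proximal window (right), both on log axes; blue is WT, orange is KO, circles are replicate 1, triangles replicate 2, and black bars the means of 2 libraries. Gstm3 lies at 4.24 and 5.89 reads per kb in WT and at 52.1 and 74.9 in KO, while Gstm7 lies lower in KO replicates 1 and 2 than in either WT replicate.

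In the gb, Gstm3 was the member with the largest difference between genotypes. Its normalized gb reads (chr3:107963696-107969174) were 26.4 and 19.0 in WT and 233 and 336 in KO, from 23 and 19 recovered whole reads in WT and 220 and 221 in KO. Both KO libraries stood far above both WT libraries, and the ratio of a KO to a WT library ranged from 8.84 to 17.7. The log2 fold change was 3.58 (SE 0.25). Gstm3 encodes a close relative of Gstm1, with 89.4% identity between the coding sequences, the highest of any pair in the family.

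Gstm1 rose in the gb. Its normalized gb reads (chr3:108012250-108017973) were 364 and 243 in WT and 425 and 518 in KO, a log2 fold change of 0.66 (SE 0.17, limma adjusted p = 0.00409). The libraries did not overlap, yet WT replicate 1 and KO replicate 1 were only 1.17-fold apart. The call was lost without WT replicate 2 (log2 fold change 0.37, adjusted p = 0.0892), without KO replicate 1 (0.80, adjusted p = 0.0517) and without KO replicate 2 (0.52, adjusted p = 0.186).

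Gstm4, which lies at the high-coordinate end of the cluster, also rose in the gb. Its normalized gb reads (chr3:108030571-108045179) were 24.1 and 21.0 in WT and 39.2 and 47.1 in KO, a log2 fold change of 0.90 (SE 0.33, adjusted p = 0.0303). These values rest on 21 to 37 reads per library. The density of Gstm4 uses a gb length of 3452 bp, which fits its shorter annotated transcript and not the gene span given above. Leaving out WT replicate 2 (adjusted p = 0.0818), KO replicate 1 (0.0738) or KO replicate 2 (0.175) ended the call, as did DESeq2 (0.175) and no filter on low values (0.119), and on the scale of 10000000 reads Gstm4 was not tested.

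Gstm7 fell, against the direction of the other active members. Its normalized gb reads (chr3:107926334-107931877) were 108 and 84.0 in WT and 45.6 and 30.4 in KO, a log2 fold change of -1.33 (SE 0.27, adjusted p = 3.86e-04). Both KO libraries were below both WT libraries, and the call held without each library in turn.

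Gstm2, between Gstm1 and Gstm3 on the chromosome, did not pass the test in the gb. Its normalized gb reads (chr3:107981702-107986420) were 50.5 and 58.0 in WT and 72.1 and 91.1 in KO, a log2 fold change of 0.57 (SE 0.25, adjusted p = 0.0747). The groups did not overlap, but the difference missed both thresholds. Gstm5 and Gstm6 were not active and were not tested. Gstm5 had 5.74, 6, 5.30 and 1.52 normalized gb reads in WT1, WT2, KO1 and KO2, and Gstm6 had 5.74, 5, 10.6 and 6.07, which are too few reads for a comparison.

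Of the 4 active members other than Gstm3, 2 were called up and 1 was called down in the gb. Over all active genes, 10.4% were called up and 11.4% were called down in the gb. The family was selected on this contrast, so nothing is read from the comparison of these shares.

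**Figure D2:**
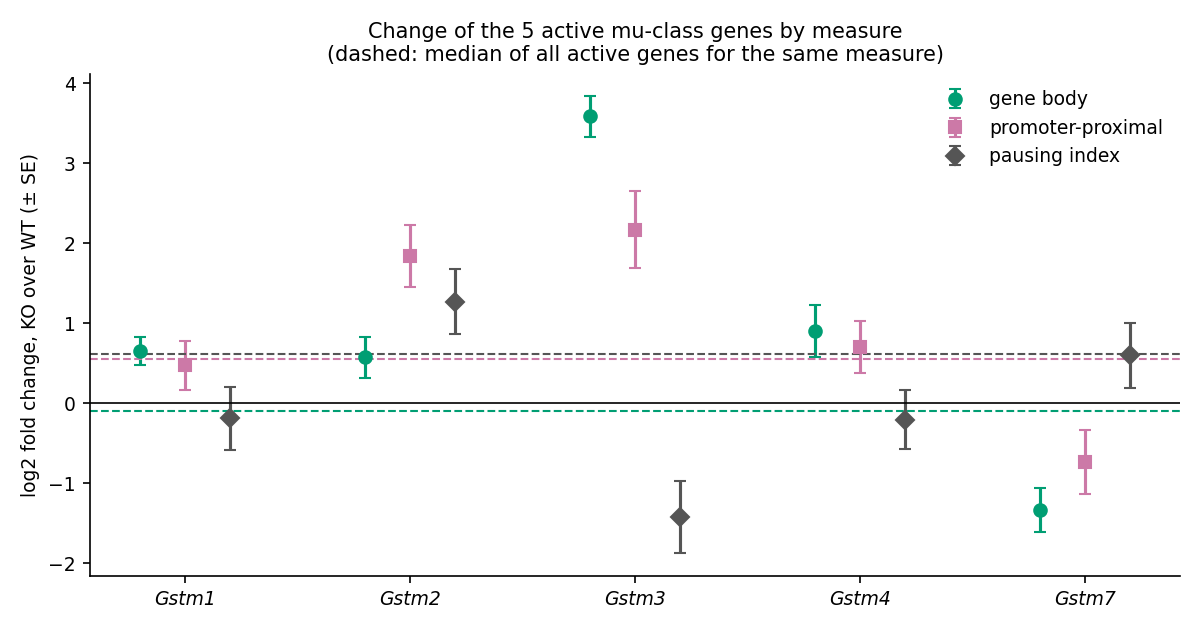
log2 fold change of KO over WT, with its SE, for the 5 active mu-class genes in the gene body (circles), the promoter-proximal window (squares) and the pausing index (diamonds); the dashed lines are the medians of all active genes at -0.09, 0.56 and 0.61. Gstm3 is highest in the gene body at 3.58, at the promoter Gstm2 and Gstm3 stand farthest above the median and Gstm7 farthest below it.

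At the promoters the members differed in another order. Gstm1 and Gstm4 held most of the family's pp reads. Gstm1 had 326 and 233 normalized pp reads in WT and 330 and 445 in KO (log2 fold change 0.47, SE 0.31, adjusted p = 0.214), which is 0.09 below the median of active genes. Gstm4 had 131 and 132 in WT and 202 and 228 in KO (0.70, SE 0.33, adjusted p = 0.0854), which is 0.14 above it. Neither of these genes, both called up in the gb, passed the test at pp.

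Gstm2 rose at pp, although it was not called in the gb. Its normalized pp reads were 37.9 and 13 in WT and 83.8 and 82.0 in KO, a log2 fold change of 1.85 (SE 0.39, adjusted p = 7.41e-05) and 1.29 above the median of active genes. The KO libraries were close to each other, the WT libraries were not, and the groups did not overlap. The call was lost without WT replicate 2 (log2 fold change 1.11, adjusted p = 0.232) and without KO replicate 2 (1.86, adjusted p = 0.0893).

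Gstm3 had 3.44 and 4.00 normalized pp reads in WT and 14.9 and 27.3 in KO, a log2 fold change of 2.17 (SE 0.48) and 1.61 above the median. The recovered reads behind these values were 3, 4, 14 and 18, with 95% Poisson intervals for counting error of 0.619 to 8.77 for the lowest and 10.7 to 28.4 for the highest. Gstm3 therefore had few pp reads in either genotype, even in KO, where its gb density was second in the family. Only 9.89% of active genes had a lower pp density.

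Gstm7 had 50.5 and 43.0 normalized pp reads in WT and 26.5 and 28.8 in KO (log2 fold change -0.73, SE 0.40, adjusted p = 0.138). It missed the test but lay 1.29 below the median of active genes, and with scaling within the region it was called down (log2 fold change -1.29, adjusted p = 0.00838). Gstm5 had 19.5 and 25 in WT and 29.7 and 31.9 in KO, and Gstm6 had 11.5 and 4.00 in WT and 6.36 and 9.11 in KO, where the groups overlapped. Of the 4 active members other than Gstm3, 1 was called up and 0 were called down at pp, against 25.8% called up and 2.2% called down of all active genes. With median-of-ratios scaling within the region, the 3282 up and 280 down calls over all active genes became 634 and 942.

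The pausing index, the ratio of pp to gb density, set the members far apart. It was 375 and 434 in WT and 355 and 334 in KO for Gstm4, and 11.7 and 18.9 in WT and 5.70 and 7.30 in KO for Gstm3. Gstm1 (84.6 and 90.6 in WT, 73.3 and 81.2 in KO) and Gstm7 (41.3 and 45.2 in WT, 51.3 and 83.8 in KO) lay between them. A high index means many polymerases near the start for each one in the gb, and Gstm4 had the highest index of the active members in every library. Gstm3 had the lowest in both KO libraries and in WT replicate 1, while in WT replicate 2 that of Gstm2 was lower (16.7). The indices of Gstm3 in WT rest on 3 and 4 pp reads.

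The index of Gstm2 rose, from 56 and 16.7 in WT to 86.8 and 67.2 in KO (log2 fold change 1.27, SE 0.41, adjusted p = 0.0268). This call was lost without any of the 4 libraries (adjusted p from 0.0526 to 0.745) and with scaling within each region (log2 fold change 0.64, adjusted p = 0.579). The index of Gstm3 was lower in KO, with a log2 fold change of -1.42 (SE 0.45), where the median active gene rose by 0.61. Gstm1 (-0.18, SE 0.39, adjusted p = 0.727), Gstm4 (-0.20, SE 0.37, adjusted p = 0.674) and Gstm7 (0.60, SE 0.40, adjusted p = 0.259) did not pass. Of the 4 active members other than Gstm3, 1 was called up and 0 were called down in the index, against 12.4% called up and 0.519% called down of all active genes.

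The make-up of the family's transcription differed accordingly. The summed gb density of the 7 genes was 132 and 101 reads per kb in WT and 189 and 232 in KO, and without Gstm3 it was 127 and 96.6 in WT and 137 and 157 in KO. Gstm3 made up 4.4% and 4.2% of the sum in WT and 27.6% and 32.3% in KO. Gstm7 made up 18.5% and 18.9% in WT and 5.48% and 2.97% in KO. Gstm1 remained the largest contributor, at 58.1% and 51.0% in WT and 47.7% and 47.3% in KO.

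At pp the make-up was different. Gstm1 and Gstm4 together made up most of the pp density in every library, at 53.8 ± 3.48% and 25.8 ± 4.60% in WT and 49.9 ± 3.25% and 27.9 ± 1.67% in KO (SD, n = 2). Gstm2 stood at 4.70 ± 2.60% in WT and 10.9 ± 1.75% in KO, and Gstm7 at 9.09 ± 0.536% and 3.61 ± 0.312%. Gstm3 reached only 2.68 ± 0.753% at pp in KO.

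**Figure D3:**
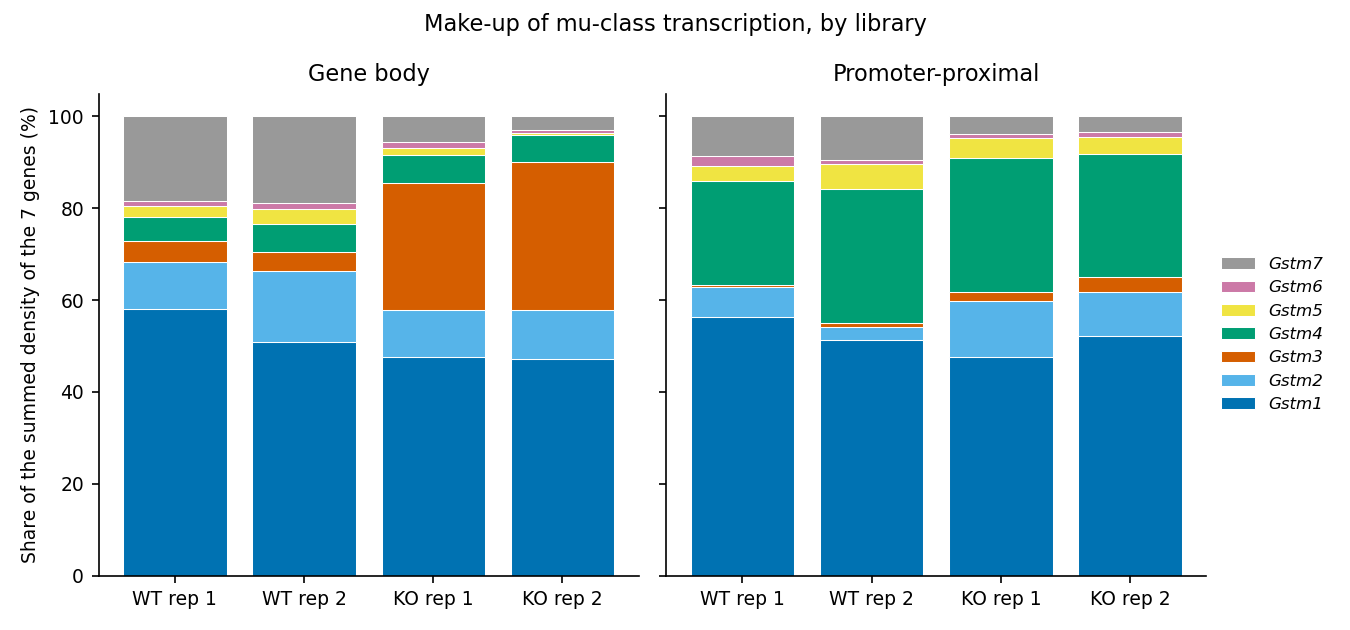
Share of each gene in the summed density of the 7 mu-class genes, in percent, for each library, in the gene body (left) and the promoter-proximal window (right). In the gene body the share of Gstm3 is 4.2% and 4.4% in WT and 27.6% and 32.3% in KO, while at the promoter Gstm1 and Gstm4 make up most of the density in all 4 libraries.

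The close relation of the coding sequences sets a limit on these values. Gstm1, Gstm2, Gstm3, Gstm6 and Gstm7 shared 82.0% to 89.4% of their coding bases pairwise. Gstm4 and Gstm5 shared 59.2% to 71.1% with the others and with each other. The Gstm4 transcript compared had a shorter coding sequence, of 552 bases. Those of Gstm1, Gstm2, Gstm3, Gstm6 and Gstm7 had 654 bases and that of Gstm5 had 672. The part of this shorter length in the low shares of Gstm4 was not tested. Of all 36-base stretches of the spliced transcript, 20.5% of those of Gstm3 and 16.0% of those of Gstm1 also occurred in another member, against 8.59% for Gstm6, 4.28% for Gstm2, 1.96% for Gstm4, 0.745% for Gstm7 and 0% for Gstm5. Reads of such stretches cannot be placed uniquely and may have been removed by the mapping filter. Introns were not compared, and the part of shared sequence in the values was not tested.

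The promoters are shown because members of 1 cluster moved to different degrees and, in the case of Gstm7, downwards. The sequences are the 250 bases before the RefSeq start of the 4 members called in either region besides Gstm3, and of Gstm3, read 5′ to 3′ on the coding strand (RefSeq, GRCm38.p6). Capitals mark matches on either strand to 6 motifs. The first is TGACNNNGC, the core of the antioxidant response element, which NRF2 binds. AGGTCA is the half-site of many nuclear receptors and GCGTG the core of the xenobiotic response element, which the AHR protein binds. TATAAA is the TATA box. The remaining pair are general promoter elements, the CCAAT box and the GC box, whose letters are GGGCGG. The windows are chr3:108017974-108018223 for Gstm1, chr3:107986421-107986670 for Gstm2, chr3:107969175-107969424 for Gstm3, chr3:108044860-108045109 for Gstm4 and chr3:107931818-107932067 for Gstm7, all on the minus strand. For Gstm4 and Gstm7 the RefSeq start used (108044859 and 107931817) lies inside the RefSeq gene span, which ends at 108045179 and 107931877. The window of Gstm4 lies wholly within that span and the window of Gstm7 partly. The counted gb length of Gstm4 (3452 bp) fits a shorter transcript, which starts at 108044859. For Gstm3 and Gstm2 the GENCODE annotation puts the start at 107969283 and 107986453, inside their windows. Part of these 2 windows therefore lies within the GENCODE transcript.
Gstm1: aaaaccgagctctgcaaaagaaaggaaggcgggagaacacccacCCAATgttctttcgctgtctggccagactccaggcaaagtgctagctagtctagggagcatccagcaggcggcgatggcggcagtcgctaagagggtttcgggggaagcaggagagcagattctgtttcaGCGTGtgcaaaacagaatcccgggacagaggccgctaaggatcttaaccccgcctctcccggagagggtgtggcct
Gstm2: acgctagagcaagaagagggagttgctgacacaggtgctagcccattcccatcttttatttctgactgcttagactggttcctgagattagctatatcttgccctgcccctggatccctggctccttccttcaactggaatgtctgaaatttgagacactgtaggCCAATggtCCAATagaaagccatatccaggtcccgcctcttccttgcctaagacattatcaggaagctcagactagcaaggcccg
Gstm3: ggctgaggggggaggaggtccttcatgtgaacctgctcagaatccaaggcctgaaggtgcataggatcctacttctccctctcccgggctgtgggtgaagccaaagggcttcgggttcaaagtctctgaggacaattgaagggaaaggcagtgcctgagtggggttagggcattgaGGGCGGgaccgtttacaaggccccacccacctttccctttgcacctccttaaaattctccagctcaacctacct
Gstm4: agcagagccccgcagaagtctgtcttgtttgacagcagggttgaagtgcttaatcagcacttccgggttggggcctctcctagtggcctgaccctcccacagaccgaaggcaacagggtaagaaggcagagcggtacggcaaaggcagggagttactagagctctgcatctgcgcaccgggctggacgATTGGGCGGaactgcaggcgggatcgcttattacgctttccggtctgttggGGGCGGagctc
Gstm7: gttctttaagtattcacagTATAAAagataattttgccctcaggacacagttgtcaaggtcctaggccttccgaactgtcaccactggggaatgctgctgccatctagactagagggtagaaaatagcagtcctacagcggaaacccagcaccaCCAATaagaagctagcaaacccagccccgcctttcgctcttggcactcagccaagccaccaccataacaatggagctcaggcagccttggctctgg

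None of these 5 windows held a match to TGACNNNGC or AGGTCA, which occur in 10.2% and 14.0% of the 32851 promoter windows of the same length. Gstm3 had 1 GC box starting 74 bases before its RefSeq start and no CCAAT. Gstm1 (206 bases before the start), Gstm2 (85 and 77 bases), Gstm7 (96 bases) and Gstm4 (62 bases, on the other strand, overlapping a GC box at 59 bases) had CCAAT, which 33.8% of all windows hold. Gstm1 had GCGTG at 76 bases (28.2% of all windows), Gstm4 a further GC box at 11 bases (32.7%), and Gstm7 TATAAA at 231 bases (12.4%). Of the 2 members that were not active, Gstm5 had the TGACNNNGC match of the family, at 42 bases. A match describes the letters of the window and not a bound site, and no match says nothing of sites elsewhere.

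The genes around the cluster showed no common direction in the gb. Of 26 other genes within 500 kb, 15 were active, of which 1 was called up and 3 were called down in the gb. The shares over all active genes were 10.4% up and 11.4% down. The median log2 fold change of the 15 was -0.05 against -0.09 for all active genes. Csf1, a macrophage growth factor 135 kb away, rose by 0.90 on the log2 scale (SE 0.12). Mybphl (-1.69, SE 0.24), a relative of a myosin-binding protein 320 kb away, Sort1 (-0.60, SE 0.11), which encodes the sorting receptor sortilin, and 4933431E20Rik (-1.11, SE 0.28) were called down. 4933431E20Rik is read from the minus strand and overlaps the start of Gstm5, which is read from the plus strand. At pp, 4 of the 15 were called up and 0 down, close to the 25.8% up and 2.2% down of all active genes. Their median at pp was 0.75 against 0.56. The nearest active gene on the Gstm4 side, Ampd2 at 28.9 kb, had a gb log2 fold change of 0.03 (SE 0.14).

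The deposited list of 2282 intergenic transcribed enhancers had 0 entries within 500 kb of the cluster and 0 with a member as the closest gene. The list was built without regions close to RefSeq genes. Only 2 enhancers were linked to a member, both through published chromatin contacts of other cells. An enhancer at chr3:96300336-96302307, which lies 11593.5 kb from the near end of the cluster, was linked to Gstm6 by Hi-C in Th1 cells. Another, at chr6:3181898-3184196, was linked to Gstm1 among 93 genes by ChIA-PET in embryonic stem cells. Neither link came from liver.

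The pattern of Gstm1 over the 4 libraries was most like that of Osgin1, an oxidative-stress response gene, by the distance between log2 gb values centred on each gene's mean. Among 11923 active genes averaging 50 or more normalized reads in the gb, genes near it were Osgin1 (distance 0.035), Cyp2u1 (0.118), Fdft1 (0.170) and Mgst3 (0.182). Their log2 fold changes were 0.61 to 0.78. Osgin1 had 16081 and 10525 reads in WT and 18230 and 22252 in KO, so that, as for Gstm1, WT replicate 2 was the lowest and KO replicate 2 the highest. The nearest to Gstm3 were Doc2b (0.945), Aldh1a1 (0.983), Thrsp (1.20), Cyp2b13 (1.22) and Rgs5 (1.26), with log2 fold changes of 2.43 to 3.10. In WT, Doc2b and Thrsp were below 50 reads, so these passed the minimum through KO. The genes were matched on these same values, so their fold changes follow from the match. The measure uses 4 libraries that all genes share, and describes likeness only.

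The rest of the glutathione system did not share 1 direction. Of 64 listed genes outside the mu class, 49 were active, of which 8 were called up and 12 called down in the gb, with a median log2 fold change of -0.06 against -0.09 for all active genes. At pp, 13 were called up and 2 down, with a median of 0.42 against 0.56. Over all active genes the shares were 10.4% up and 11.4% down in the gb, and 25.8% and 2.2% at pp.

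Of 15 active genes listed as glutathione S-transferases of other classes, 4 were called up and 3 down in the gb. The list also holds Clic1, which is among those called up, and its relative Clic4, which was not called. Gstt2 (theta class) rose by 0.91 on the log2 scale (SE 0.20), Gstp1 (pi class) by 0.90 (SE 0.21), and Clic1, an intracellular channel protein with a transferase fold, by 0.66 (SE 0.12). Mgst3, a microsomal enzyme, rose by 0.61 (SE 0.19). Gstk1 (kappa class, -1.01, SE 0.17), Gstz1 (zeta class, -0.96, SE 0.11), which acts in tyrosine breakdown, and Gsto1 (omega class, -0.63, SE 0.20) fell.

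Of 26 active genes of glutathione synthesis, reduction and turnover, 2 were called up and 7 down. Gpx8 (1.9, SE 0.46) and Gpx4 (0.76, SE 0.19), which are peroxidases, rose. Chac1, which degrades glutathione, fell from 264 and 197 normalized gb reads in WT to 19.1 and 15.2 in KO, a log2 fold change of -3.67 (SE 0.26, adjusted p = 2.03e-10). Ggct (-1.12, SE 0.19), of the same turnover route, the peroxidase Gpx1 (-0.91, SE 0.23), the glutaredoxin Glrx (-0.90, SE 0.16) and the glyoxalase Hagh (-0.89, SE 0.12) also fell. Gclc, the catalytic subunit of the rate-limiting synthetic enzyme, was not called (0.28, adjusted p = 0.0925). Among 8 active genes listed under export, Abcc4 (0.998, SE 0.11) and Abcc1 (0.65, SE 0.12) rose. Abcc2 (-0.71, SE 0.13), the canalicular pump for conjugates, fell. Slco1b2 (-0.87, SE 0.12) also fell, but it encodes a hepatic uptake carrier and is not an export gene, although the list holds it.

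**Figure D4:**
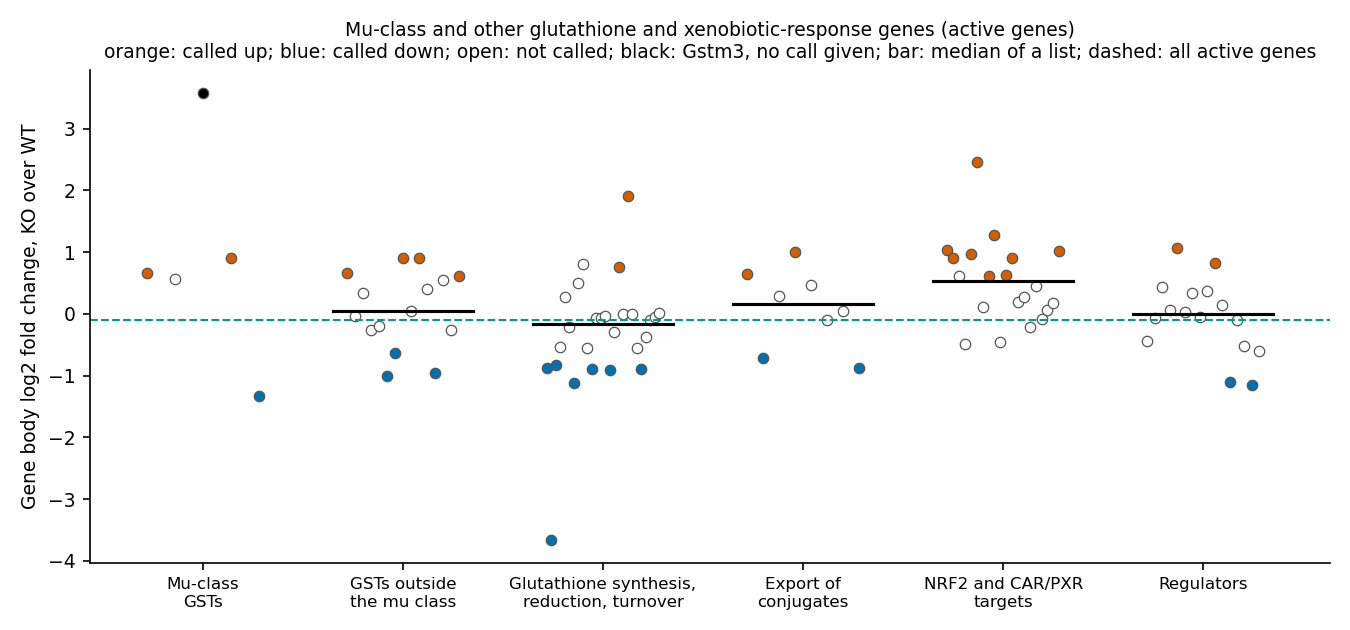
Gene body log2 fold change of KO over WT for each active gene of the mu class and of 5 lists; orange points were called up, blue points down, open points were not called and the black point is Gstm3, black bars are the list medians and the dashed line is the median of all active genes. The NRF2 and CAR/PXR targets, chosen with results of these data known, hold 9 points called up and 0 called down, whereas the other lists hold points of both colours. Of all active genes, 10.4% were called up and 11.4% down.

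The list of NRF2 and CAR/PXR targets outside the transferases was chosen with results of these data known. It had 9 of 20 active genes called up and 0 down in the gb, with a median of 0.54. The shares over all active genes were 10.4% up and 11.4% down, and their median was -0.09. The largest rises were those of Cyp2b13 (2.46, SE 0.11), Cyp3a11 (1.28, SE 0.12), Akr1b8 (1.03, SE 0.16), Ugdh (1.02, SE 0.14) and Cyp2b10 (0.98, SE 0.20). Cyp3a11 is a classical target of PXR and Cyp2b10 of CAR. At pp, 8 of the 20 were called up and 0 down, against 25.8% up and 2.2% down of all active genes. The median of the list at pp was 0.45, below the 0.56 of all active genes.

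Of the regulators of such genes, Nr1i2, which encodes PXR, fell from 6807 and 7833 normalized gb reads in WT to 3168 and 3665 in KO, a log2 fold change of -1.10 (SE 0.11, adjusted p = 5.11e-08). Nfe2l2, which encodes NRF2, had a log2 fold change of 0.37 (SE 0.11, adjusted p = 0.00724), under the minimum of 0.6. Keap1, the inhibitor of NRF2 (0.06, adjusted p = 0.741), Nr1i3, which encodes CAR (-0.09, adjusted p = 0.622), and Ahr (-0.43, adjusted p = 0.00235) were not called. Of the regulators listed, Maff (1.06, SE 0.15) and Nr1d1 (0.83, SE 0.14) were called up. The regulators listed thus changed in both directions or not beyond the thresholds, and of Nr1i2, Nr1i3 and Ahr none was called up. Protein activity was not measured.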

How the data were processed

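Per the labels and the study's methods, the authors trimmed reads with cutadapt, aligned them to mm10 with Bowtie2, removed rRNA reads and reads of mapping quality under 10, and counted them with NRSA on the coding strand. The pp window is the 50 bp with most reads within 500 bp of the TSS. The deposited signal is reads scaled by 1 factor per library, computed by the authors from uniquely mapped reads. WT replicate 2 had a factor of 1, so its deposited values are raw counts. Division by the factor gave whole reads for 100% of values (tolerance 0.001 reads), from 16628518 to 26190040 reads per library, and counting intervals cover counting error only. The deposited enhancer list gave positions.

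Of 20820 transcripts (20642 symbols), genes with pp reads and over 4 normalized gb reads per kb on average were active (12705, or 11100 after scaling to 10000000 reads on genes). The main test was limma 3.58.1 (trend, no block) on log2(value + 1), with Benjamini-Hochberg adjustment, and fold changes are on that scale. With 2 libraries a group, an exact two-sided permutation test cannot go below p = 0.333. edgeR 4.0.16, DESeq2 and other scalings, filters and pseudocounts were alternatives, and the fits were tested on simulated data. Same-numbered libraries did not deviate together (r = 0.019 in the gb and -0.105 at pp over 12705 genes). The members and lists were chosen with earlier results of these data known. All 7 members were named, and of each list and of the cluster's surroundings at most the 5 largest called gb changes in each direction, plus Nfe2l2, Keap1, Nr1i2, Nr1i3 and Ahr. Ampd2 and Gclc were singled out after their values were seen. Some genes that these rules name are not reported here.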

Additional observations from a re-analysis of the deposited data

How the results depend on the processing

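Values rest on 2 pools a genotype, and Gstm3, Gstm4, Gstm5 and Gstm6 on few reads in at least 1 region. The direction of every active member in the gb held under all alternatives run. The direction of Gstm1 at pp turned with median-of-ratios and TMM scaling within the region (-0.0954 and -0.0958), and that of the Gstm7 pausing index likewise (-0.0350 and -0.0336). The same 2 scalings gave 1 member down at pp and 0 up and 0 down in the pausing index. They gave 5 up and 6 down of the other glutathione genes at pp, and 1 neighbour up at pp. Both scalings brought the median change of active genes at pp close to 0 (-0.0013 and -0.0017). The pausing index of Gstm3 moved further from 0 under them (-1.998 and -1.997, against -1.416). The cause of these differences was not tested.

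With no filter on low values, which fits 20642 genes, 1 member was called up and 0 down in the gb, 0 at pp and 0 in the pausing index in either direction, 2 up and 2 down of the other glutathione genes in the gb and 0 at pp, and 0 neighbours in either region. A pseudocount of 0.1 left 0 members down in the pausing index. With no minimum fold change, 13 of the other glutathione genes were called up in the gb. An active cutoff after scaling to 10000000 reads left 4 members to test, without Gstm4, of which 2 were up in the gb, and left 1 neighbour down in the gb. The cause of these last differences was not tested.

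Leaving out each library in turn gave 1 to 3 members up in the gb and 0 to 2 at pp, 0 to 1 up and 0 to 1 down in the pausing index, 5 to 7 of the other glutathione genes up in the gb, 1 to 15 up and 0 to 2 down at pp, and 0 to 6 neighbours up at pp. Where an arm was left with 1 library, its spread was taken to be that of the other arm.

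The labels share replicate numbers, but the libraries of a number did not pair. With the replicate block, members in the pausing index were 0 up and 0 down and 2 neighbours were up at pp, and no call of a member in the gb or at pp changed. With crossed pairing, added after seeing the data, 3 members, 18 other glutathione genes and 7 neighbours were called up at pp. Over all active genes, the pp calls up (3282) became 634 with median-of-ratios scaling within the region, 1772 with the replicate block, 4861 with crossed pairing, 703 and 493 without WT replicates 1 and 2, and 3522 and 319 without KO replicates 1 and 2. The pausing index calls up (1574) became 6, 186, 4109, 41, 29, 5258 and 397 in the same order. Counts of members here include Gstm3, on whose change the family was selected.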

Other observations

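Markers of the remaining cell types moved less evenly in the gb. Of 10 active Kupffer and myeloid markers, 0 were called up and 1 down, and their summed normalized gb reads were 17286 and 18119 in WT and 22089 and 18751 in KO. Of 10 lymphocyte markers, 2 were called up and 2 down. Of 10 pericentral hepatocyte markers, 1 was called up and 2 down. Of 5 active cholangiocyte markers, 2 were called down, with sums of 4872 and 4941 in WT and 3146 and 3072 in KO. Of 5 active erythroid markers, 4 were called down, with sums of 828 and 1035 in WT and 377 and 313 in KO. For comparison, 10.4% of all active genes were called up and 11.4% down in the gb.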
